A study of Mus musculus with 8 samples.

Results

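The cytosolic ribosomal protein genes are described here in mouse adipose tissue from cold-exposed animals. Members were taken by gene symbol: names starting with Rpl or Rps and a number, Rplp0, Rplp1, Rplp2 and Rpsa, without the S6 kinases (Rps6k), pseudogenes named -ps, and names ending in l. The rule gave 84 of the 18395 genes in the count table, and no measured value was used in it. Of these, 77 encode standard proteins of the ribosome, 31 of the small (40S) and 46 of the large (60S) subunit. The other 7 are the paralogues Rpl22l1 and Rpl7l1, the retrogenes or further copies Rpl37rt, Rps27rt, Rps3a2 and Rps3a3, and Rps19bp1, which encodes a protein that binds Rps19 and is not itself a ribosomal protein. All 84 passed the filter on low counts, as did 13901 genes in all.

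The study sequenced polyadenylated RNA of adipose tissue from 2 groups of 4 libraries. WT libraries are from control mice, and KO libraries from mice with Kindlin-2, the integrin-binding adhesion protein encoded by Fermt2, knocked out in brown adipocytes; every mouse of both groups had spent 6 hours at 4 °C. The labels name neither the depot, strain, age nor sex, nor the Cre line that removed the gene, and they do not say whether replicates are separate animals, so p-values measure only the spread between these libraries. Library totals were 33672272 to 43253559 counts in WT and 35734373 to 40927141 in KO. Fermt2 had 239, 234, 244 and 201 CPM (a gene's counts per 1000000 of library size, here with each size adjusted by the trimmed mean of M, TMM) in the WT libraries and 192, 132, 172 and 174 in the KO libraries, so the groups did not overlap, although the difference (log2 fold change −0.45 ± 0.14, SE) had an adjusted p of 0.134 by edgeR's quasi-likelihood test. Scaled by total library size, Fermt2 overlapped between groups (185.0 to 222.3 CPM in WT, 144.8 to 221.9 in KO), with a log2 fold change of −0.19 ± 0.14 and an adjusted p of 0.38 (edgeR). The tissue label was checked by adipocyte markers: Ucp1, the uncoupling protein of brown fat, had 5076 to 6569 CPM in WT and 1790 to 4296 in KO. In such whole tissue, fewer cells of a type and less RNA per cell cannot be told apart. WT replicate 3 carried 4.90% of its counts in 20 skeletal muscle genes, against at most 0.0402% in any other library, and KO replicate 2 carried 0.678% in 20 interferon response genes, against at most 0.06% elsewhere. The member medians and calls are given with and without these 2 libraries.

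Each ribosome holds a single copy of nearly every one of these proteins, arranged around the ribosomal RNAs, so cells make the proteins in close balance. Their messenger RNAs are short, abundant and stable, and most start with a pyrimidine-rich stretch, the 5′ terminal oligopyrimidine (TOP) tract, through which mTORC1 and the RNA-binding protein LARP1 control their translation. In brown fat, growth signals and cold exposure both act on mTORC1. Transcript abundance, the quantity measured here, is a separate step from translation.

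Start-site sequence is shown for 8 members from the ends of the fold change order given below, because the TOP tract is the feature these transcripts are known to share. The windows run from 10 bases before the annotated start to 20 bases from it, and come from RefSeq (GRCm38.p6). Capitals mark each run of at least 6 pyrimidines that begins with C, as far as it lies inside the window. Rps28 is at chr17:33824543-33824572 and Rps18 at chr17:33955646-33955675, both on the minus strand. The others are on the plus strand: Rpl37a at chr1:72711250-72711279, Rplp2 at chr7:141447641-141447670, Rps2 at chr17:24720053-24720082, Rpl4 at chr9:64173377-64173406, Rpl22l1 at chr3:28805498-28805527 and Rplp0 at chr5:115559457-115559486. Each window spans the upstream flank and the first transcribed bases.
Rps28: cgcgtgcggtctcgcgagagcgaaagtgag
Rps18: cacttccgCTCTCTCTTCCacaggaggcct
Rpl37a: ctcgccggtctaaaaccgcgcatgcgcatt
Rplp2: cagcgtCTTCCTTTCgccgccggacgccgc
Rps2: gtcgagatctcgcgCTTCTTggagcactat
Rpl4: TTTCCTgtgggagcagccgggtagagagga
Rpl22l1: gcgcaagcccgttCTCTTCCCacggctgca
Rplp0: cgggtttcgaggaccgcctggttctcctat
Runs of this kind stood in windows of members at both ends of the order.

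Of the 77 standard members, 57 had a promoter entry. A run on the transcribed strand within 20 bases on either side of an annotated start was found for 38 of them (66.7%), against 32.8% of 27025 genes with an entry and 34.5% of 10550 other genes tested. The 38 with a run differed between KO and WT by a median of 0.16 on the log2 scale (TMM scaling), and the 19 without one also 0.16. The letters CCGGAAG, the core bound by ETS factors, were found on either strand of the 300-base promoter in 24 of the 57 (42.1%), against 9.93% of all genes with an entry and 18.8% of the other genes tested. These matches describe letters near annotated starts, which need not be the starts used in this tissue.

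Ribosomal protein transcripts took a larger part of the KO libraries than of the WT libraries. The 84 members held 2.01%, 2.38%, 2.12% and 1.95% of all counts in the 4 WT libraries and 3.03%, 2.89%, 2.69% and 2.96% in the 4 KO libraries. The mean was 2.12% ± 0.193 in WT and 2.89% ± 0.147 in KO (SD, n = 4), a difference of 0.777 percentage points, and the lowest KO library lay above the highest WT library. A share depends on what else was counted, and the mitochondrially encoded genes held 21.7% ± 2.65 of counts in WT and 16.6% ± 1.34 in KO. With those genes left out of the total, the members held 2.70% ± 0.212 in WT and 3.47% ± 0.156 in KO, again without overlap. On TMM-scaled library sizes the groups were closer, with a summed 23146 ± 1860 CPM in WT and 26398 ± 663 in KO, and WT replicate 2 (25131 CPM) lay just below the lowest KO library (25680 CPM).

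**Figure D1:**
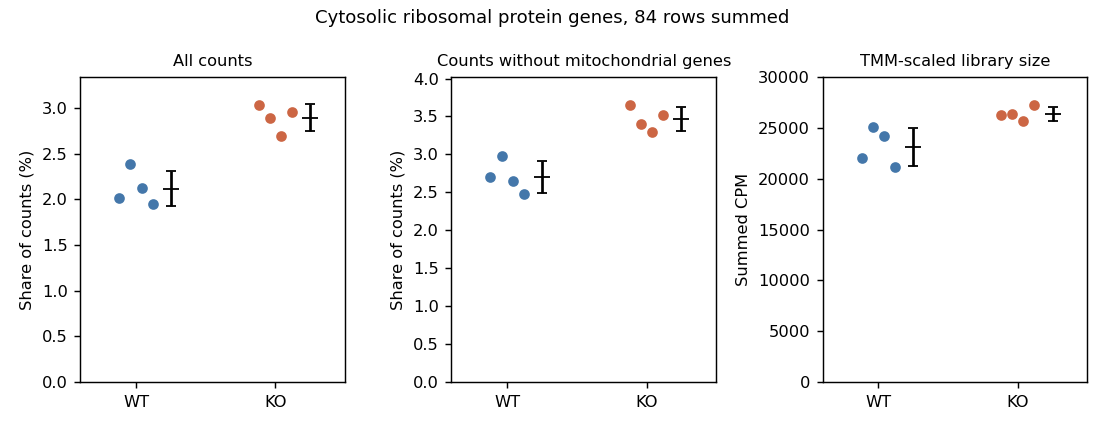
Summed level of the 84 ribosomal protein genes in each library (points, 4 WT and 4 KO), as percent of all counts, as percent of counts without mitochondrially encoded genes, and as summed CPM on TMM-scaled library sizes. Bars are the mean and SD; every KO library lies above every WT library in all 3 panels, with the smallest gap under TMM (25131 against 25680 CPM).

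Markers of several other cell types were also more abundant in KO libraries. Endothelial genes (18) held 0.197% to 0.271% of counts in WT and 0.287% to 0.542% in KO. Macrophage genes (12) held 0.0205% to 0.0298% in WT and 0.0306% to 0.0746% in KO, where the top value was KO replicate 2 and the other KO libraries reached at most 0.0400%. T and NK cell genes (18) overlapped, at 0.00088% to 0.00617% in WT and 0.0051% to 0.0402% in KO, or at most 0.00911% without KO replicate 2. B and plasma cell genes (10) held 0.00098% to 0.00162% and 0.00229% to 0.00454%. Cell cycle genes (20) held 0.00473% to 0.00718% in WT and 0.00734% to 0.0290% in KO, or at most 0.00859% without KO replicate 2. Under TMM the median log2 fold change of endothelial genes was 0.56, and 0.59 without WT replicate 3 and KO replicate 2. In the same order it was 0.47 and 0.18 for macrophage genes, and 2.07 and 0.91 for T and NK cell genes. For B and plasma cell genes (7 and 5 tested) it was 0.66 and 0.58, and for cell cycle genes 1.49 and 0.51. Erythroid genes (7) overlapped, at 0.0368% to 0.0843% in WT and 0.0525% to 0.108% in KO, and 4 of the 5 tested were lower in KO under TMM. Skeletal muscle genes (20) were not higher in KO, at 0.00614% to 4.90% in WT, where the top was WT replicate 3, and 0.00637% to 0.0400% in KO. Adipocyte genes (12) overlapped as shares of counts, at 2.77% to 3.53% and 2.59% to 3.41%, and 7 of the 12 were lower in KO under total library size. Under TMM 10 of the 12 were lower, and the median log2 fold change was −0.35. An unadjusted p under 0.05 (edgeR) was reached by 5, all lower, against 21.5% of all genes in either direction. None passed the adjusted threshold by edgeR, and neither did any other gene. DESeq2 called 4, all lower in KO, against 8.71% of all genes with an adjusted p, in either direction. It also called 7 of 18 endothelial, 7 of 18 T and NK cell and 3 of 20 cell cycle genes, all higher in KO. In that direction it called 4% of all genes. By edgeR under TMM, 12, 13 and 8 of these had an unadjusted p under 0.05, all higher, against 10.4% of all genes. Without WT replicate 3 and KO replicate 2 the numbers were 15, 5 and 4. DESeq2 called no macrophage gene and no B or plasma cell gene. The part of these cells in the ribosomal protein difference was not tested.

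The 2 common ways of scaling the libraries gave different counts of called genes for this family. Under TMM, 73 of 84 members were higher in KO (50.5% of all genes tested were), with a median log2 fold change of 0.17 against 0.00 for all genes. No member passed an adjusted p of 0.05 by edgeR's quasi-likelihood test, and neither did any other gene (0% of 13901 called). An unadjusted p under 0.05 was reached by 19 members, all higher in KO, against 10.4% of all genes in that direction (DESeq2 gave 24, against 9.15%), and the smallest adjusted p among members was 0.118. Scaled by total library size, 82 members were higher in KO (76.2% of all genes were), the median was 0.43 against 0.27 for all genes, and 27 members passed, all higher in KO, against 6.23% of all genes. Those 27 calls were lost in most single omissions of a library. With any 1 library other than KO replicate 2 left out, none of the 84 passed, and at most 20 genes of the whole table did. With KO replicate 2 left out, 30 members passed.

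With each library left out in turn under TMM, the median member log2 fold change lay between 0.11 and 0.21 and no member passed. Without WT replicate 3 and KO replicate 2, the median member log2 fold change was 0.21 under TMM, where 0 members and 3.32% of all genes were called, and 0.44 under total library size, where 27 members passed, against 10.2% of all genes in that direction. DESeq2 called 6 members, among them Rps28, Rpl37a, Rpl17, Rplp2 and Rps16, all higher in KO, against 4% of all genes with an adjusted p in that direction. Under total counts without mitochondrially encoded genes the median was 0.34 and no member passed (0.00719% of all genes did). The TMM factors that separate the 2 scalings had a mean of 0.914 ± 0.0312 for WT libraries and 1.096 ± 0.0447 for KO libraries (SD, n = 4).

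**Figure D2:**
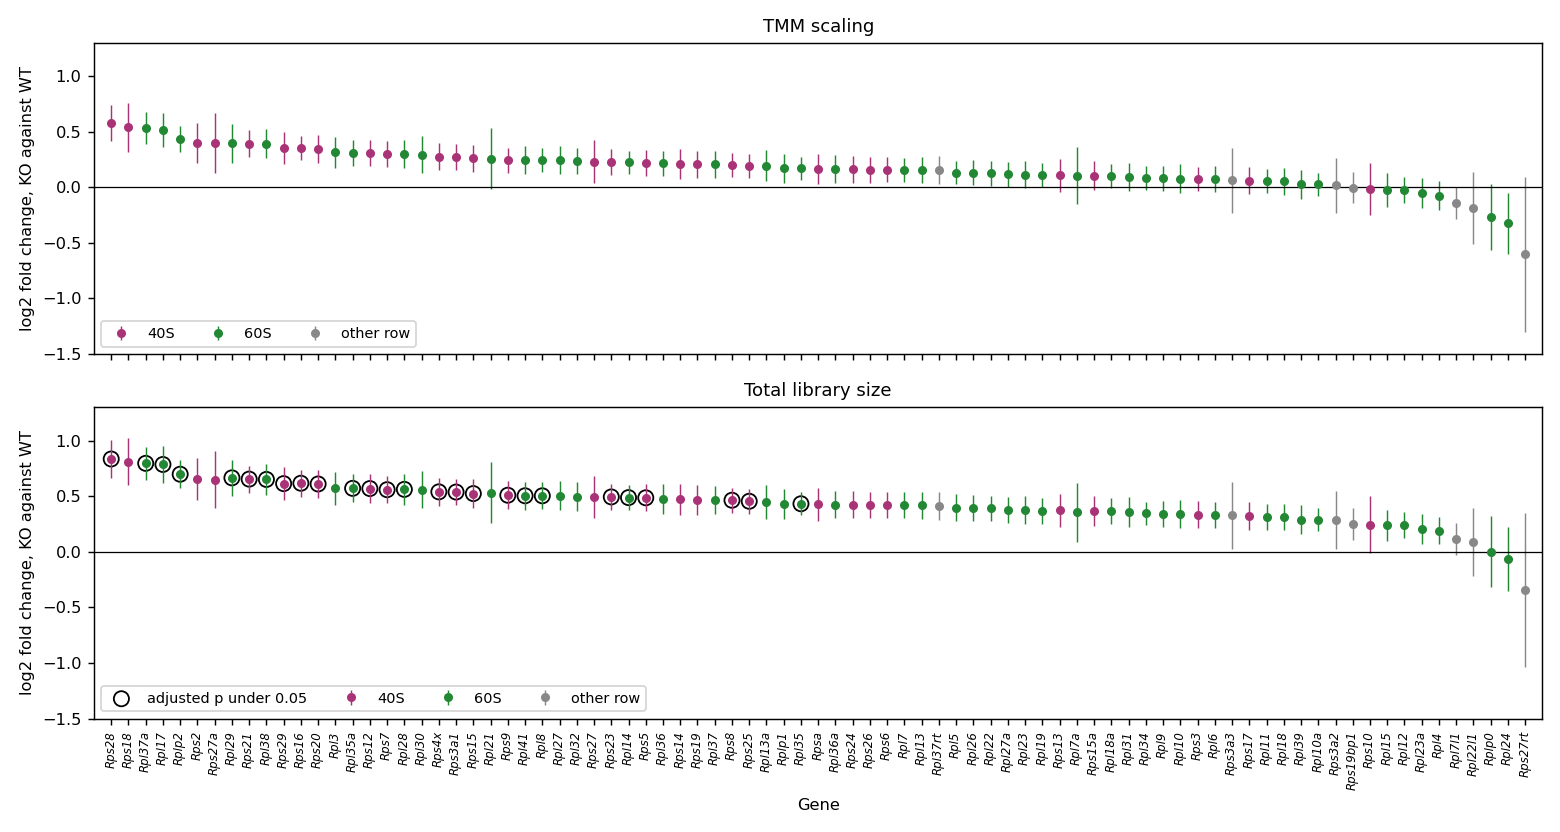
Log2 fold change (KO against WT) with SE for 83 of the 84 members, in order of the TMM value, under TMM (upper) and total library size (lower). Circles mark an adjusted p under 0.05: none under TMM and 26 of those shown under total library size; the order is nearly the same in both panels, and the lower panel sits higher.

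Overlap between groups was counted gene by gene. Under TMM, 22 members had all 4 KO libraries above all 4 WT libraries, against 5.8% of all genes tested, and 1 member, Rpl24, had all KO libraries below, against 7.56%. Under total library size 63 were higher without overlap, against 19.8% of all genes, and none was lower, against 1.14%. When each library was instead scaled to its own summed member counts, 39 members were higher (31.9% of all genes were) and 45 lower in KO, the median was −0.02, and 0 passed the edgeR test (3.42% of all genes did). On that scale, which compares each ribosomal protein with the family as a whole, 3 were higher and 5 lower without overlap, against 1.69% and 15.4% of all genes.

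Small-subunit genes had the larger differences. The 31 genes of the 40S subunit had a median log2 fold change of 0.23 under TMM, with 30 higher in KO, and the 46 of the 60S subunit had 0.14, with 40 higher. Under total library size the medians were 0.49 and 0.41, with 16 of 31 and 11 of 46 genes past the threshold, beside a median of 0.27 and 6.23% of genes called higher over the whole table. None of these genes passed when any 1 library other than KO replicate 2 was left out, and at most 20 genes of the whole table did. Without both WT replicate 3 and KO replicate 2, 17 of the 31 and 10 of the 46 passed, against 10.2% of all genes called higher. The ratio of summed 40S to summed 60S counts does not depend on the scaling. It was 0.766, 0.780, 0.800 and 0.838 in WT and 0.846, 0.846, 0.846 and 0.851 in KO, so the KO libraries were nearly identical and lay just above the highest WT library. After near-identical copies were added to their genes, as described further on, the ratios were 0.779 to 0.819 in WT and 0.827 to 0.837 in KO.

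Rps28, a small protein of the 40S platform near the mRNA exit channel, had the highest fold change of the family. It had 129, 132, 94.8 and 84.9 CPM in WT and 164, 150, 162 and 181 in KO. Every KO library was above every WT library, with a log2 fold change of 0.58 ± 0.16 under TMM (adjusted p = 0.122, edgeR) and 0.83 ± 0.17 under total library size (adjusted p = 0.0383). Its neighbours at the exit channel on the fixed list, 4 genes with Rps28 among them, were all higher in KO, with a median of 0.21 under TMM and 2 of 4 past the threshold under total library size. The 2 proteins of the decoding centre, Rps15 and Rps23, had log2 fold changes of 0.26 and 0.23 under TMM, and both passed under total library size. Over the whole 40S subunit, 30 of 31 genes were higher under TMM, with a median of 0.23. Under total library size 16 of the 31 passed, against 6.23% of all genes called higher. None of these calls held with any 1 library other than KO replicate 2 left out, where at most 20 genes of the whole table passed.

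Rps27a, made as a fusion with ubiquitin, had 198, 129, 161 and 242 CPM in WT and 141, 307, 297 and 216 in KO. These values overlapped widely, and the log2 fold change of 0.40 ± 0.27 had an adjusted p of 0.404 (edgeR). Rpsa, the laminin receptor homologue that sits on the 40S subunit, was the member with the highest CPM, at 967, 1218, 990 and 852 in WT and 1210, 1116, 1047 and 1136 in KO, again overlapping (0.16 ± 0.13). Rps6, the substrate of S6 kinase downstream of mTORC1, had 377 to 454 CPM in WT and 441 to 517 in KO, with a log2 fold change of 0.16 ± 0.11.

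In the 60S subunit, Rpl37a, a zinc-binding protein, had 211, 220, 216 and 147 CPM in WT and 277, 274, 283 and 314 in KO. The groups did not overlap, WT replicate 4 stood low, and the log2 fold change was 0.53 ± 0.14 under TMM (adjusted p = 0.118, edgeR) and 0.79 ± 0.15 under total library size (adjusted p = 0.0355). Rpl29 had 142, 85.3, 159 and 134 CPM in WT and 170, 171, 163 and 179 in KO. Its log2 fold change was 0.39 ± 0.17, and WT replicate 2 lay well below the other WT libraries. Rpl41, the shortest ribosomal protein, had 511, 513, 511 and 435 CPM in WT and 498, 592, 569 and 672 in KO, with a log2 fold change of 0.24 ± 0.13 and overlapping groups.

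**Figure D3:**
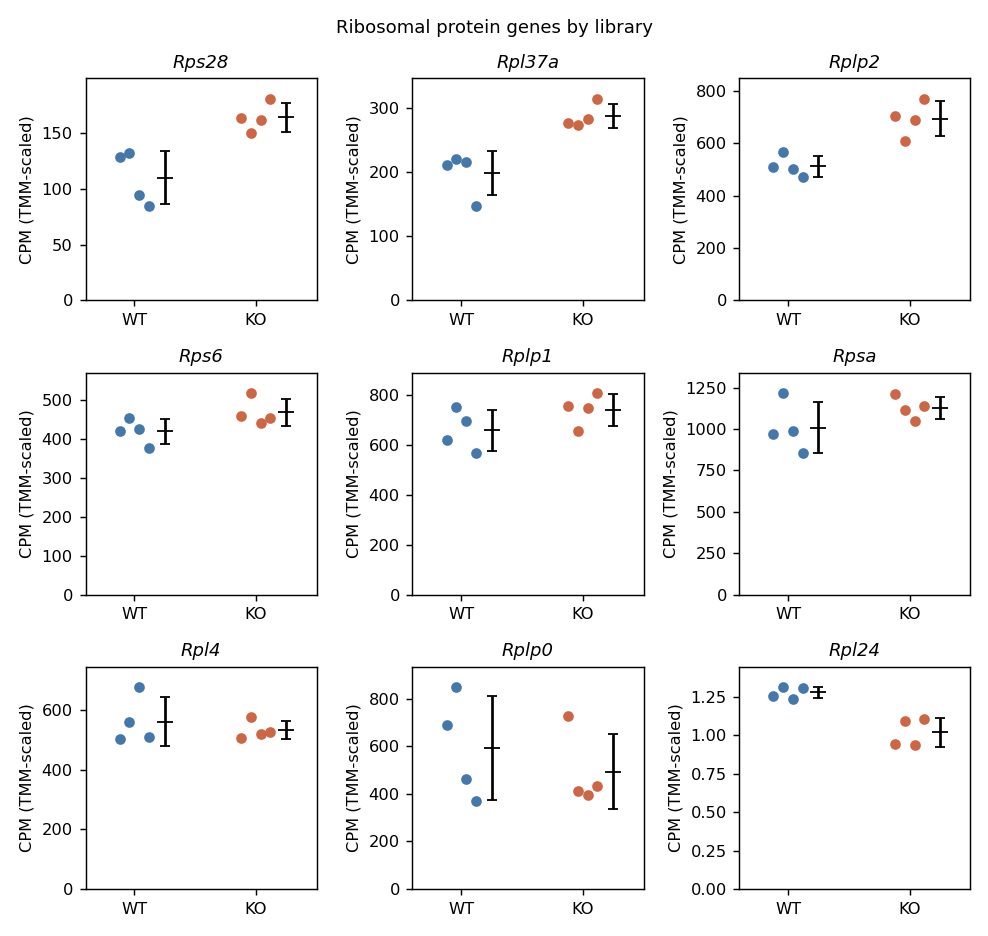
CPM on TMM-scaled library sizes of 9 members in each library (points), with mean and SD beside them. Rps28, Rpl37a and Rplp2 show KO libraries above all WT libraries, and Rps6, Rplp1, Rpsa, Rpl4 and Rplp0 overlap. Rpl24, at about 1 CPM, has its KO libraries below all WT libraries on this scale (adjusted p = 0.503, edgeR). Under total library size no member did.

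The P stalk, which recruits translation factors to the large subunit, is built of Rplp0 and paired Rplp1 and Rplp2, and its 3 genes did not share a pattern. Rplp2 had 510, 566, 502 and 471 CPM in WT and 705, 608, 691 and 771 in KO. These did not overlap, and the log2 fold change was 0.44 ± 0.12 under TMM (adjusted p = 0.119, edgeR) and 0.70 ± 0.13 under total library size (adjusted p = 0.0355). Rplp1 had 620, 754, 698 and 568 CPM in WT and 757, 656, 749 and 810 in KO, with overlap and a log2 fold change of 0.17 ± 0.13. Rplp0, a widely used reference gene for quantitative PCR, had 689, 850, 462 and 371 CPM in WT and 730, 414, 394 and 435 in KO. It varied about as much within each group as between them: WT replicates 1 and 2 and KO replicate 1 were high and the other 5 libraries low, with a log2 fold change of −0.27 ± 0.29 (TMM) and 0.00 under total library size. Its within-group SD of log2 CPM, 0.482, was the highest among the 77 standard members, whose median was 0.139, against 0.205 for other genes of at least 50 CPM.

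Rpl5 and Rpl11, which carry the 5S ribosomal RNA and bind Mdm2 when ribosome assembly is disturbed, had small differences. Rpl5 had 315 to 353 CPM in WT and 346 to 402 in KO (0.13 ± 0.11), and Rpl11 338 to 395 and 347 to 412 (0.06 ± 0.11). Of the 8 genes of the peptide exit tunnel and its rim, 6 were higher and 2 lower in KO under TMM, with a median of 0.10, and 2 passed under total library size. Over the whole 60S subunit, 40 of 46 genes were higher under TMM, with a median of 0.14. Under total library size 11 of the 46 passed, against 6.23% of all genes called higher. With any 1 library other than KO replicate 2 left out none of the 46 passed, and at most 20 genes of the whole table did. Rpl4, a protein of that tunnel, had 502, 558, 677 and 508 CPM in WT and 506, 578, 521 and 528 in KO, where WT replicate 3 stood high and the log2 fold change was −0.08 ± 0.13. Rpl12, at the base of the stalk, had 183 to 233 CPM in WT and 188 to 225 in KO (−0.03 ± 0.12), and Rpl23a, at the tunnel exit, 56.5 to 74.2 and 54.1 to 77.4 (−0.05 ± 0.14). The 4 neighbours of the peptidyl transferase centre were all higher under TMM, with a median of 0.24, as were 40 of the 46 genes of the 60S subunit.

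Standard members differed widely in level. Per kilobase of transcript and on total library size, their median level was 327 CPM per kilobase, with Rplp1 highest at 1420. The lowest were Rpl24 (1.69), Rps10 (4.49) and Rpl13a (12.4). Rpl24 had only 1.26, 1.31, 1.24 and 1.31 CPM in WT and 0.944, 1.09, 0.935 and 1.11 in KO, and its log2 fold change of −0.33 ± 0.28 had an adjusted p of 0.503 (edgeR). A protein present once in every ribosome had in these 3 cases far fewer counts than its partners. For Rps10, 95.5% of the counts of the gene and its near-identical copies together were assigned to the copies. Rpl13a, another common reference gene, had 10.4 to 13.5 CPM in WT and 11.7 to 15.3 in KO (0.19 ± 0.14).

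Ribosomal protein genes have many processed pseudogenes, and reads from a gene and a near-identical copy can be split between them by the counting. Copies were taken as rows whose transcript aligned to a member over at least 200 bases at 95% identity or more. Rows aligned over at least 80% of the member's transcript at somewhat lower identity, or carrying the member's name with -ps, were also taken. This gave 223 rows, 215 of them pseudogenes, for 57 members. The copies held 0.140% ± 0.0258 of all counts in WT and 0.146% ± 0.0097 in KO, overlapping groups, and in 18 families they held over 10% of the counts. With copies added to their gene, 80 members were left, of which 71 were higher in KO under TMM, with a median of 0.16 and 0 called. Under total library size 1 of the 80 was lower, the median was 0.42 and 29 were called. Before copies were added, 27 members and 6.23% of all genes were called higher on that scale. Under TMM the fold change of 6 genes moved by over 0.1 on the log2 scale.

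Rps2, which lines the mRNA entry channel, is the clearest case. The gene itself had 446, 591, 506 and 823 CPM in WT and 760, 761, 812 and 784 in KO, a log2 fold change of 0.40 ± 0.18. Its pseudogene Rps2-ps10, 99.5% identical over the aligned part, had 6364, 9393, 6390 and 169 counts in the 4 WT libraries and 183, 180, 133 and 151 in the 4 KO libraries. WT replicates 1 to 3 were thus far above WT replicate 4 and the whole KO group. The sum of Rps2 and its copies was 651, 902, 732 and 839 CPM in WT and 776, 778, 827 and 802 in KO, with a log2 fold change of 0.03 ± 0.13.

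Rps18, a protein of the 40S head, had 179, 216, 373 and 334 CPM in WT and 409, 391, 389 and 413 in KO, with a log2 fold change of 0.54 ± 0.22 and no overlap. Its copy Gm11361 had 1430 and 1399 counts in WT replicates 1 and 2, the 2 with low Rps18, 57 and 91 in WT replicates 3 and 4, and 97 to 137 in KO. The sum, 226, 265, 376 and 338 CPM in WT and 412, 394, 392 and 418 in KO, still differed by 0.42 ± 0.16. Rps7 went from 0.30 ± 0.11 to 0.01 ± 0.11 when its copies were added, as the copy share was 31.8% to 43.5% in WT and 21.5% to 32.0% in KO. Rpl17, of the tunnel exit, had 83.5, 94.2, 108 and 92.7 CPM in WT and 170, 126, 137 and 107 in KO, a log2 fold change of 0.51 ± 0.15 that became 0.16 ± 0.11 with its copies. Rps10 went from −0.02 ± 0.24 to 0.17 ± 0.11, and Rps27 from 0.23 ± 0.19 to 0.10 ± 0.11.

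The retrogene Rps27rt, the member with the lowest log2 fold change (−0.60 ± 0.70), had 95.7, 28.0, 18.8 and 12.6 CPM in WT and 23.1, 15.3, 17.7 and 45.9 in KO. It is 100% identical to Rps27 over the aligned part. In WT replicate 1, where Rps27 was lowest, Rps27rt took 48.8% of their joint counts, against 6.99% to 19.6% in the other libraries. Rps3a2 (1.96 to 2.78 CPM in WT, 1.87 to 2.66 in KO) and Rps3a3 (1.05 to 2.03 and 1.40 to 1.83) were among the rows with the fewest counts. Rps28, Rpl37a and Rplp2 had no such copy, and Rpl29 stayed at 0.39 with its copies added.

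**Figure D4:**
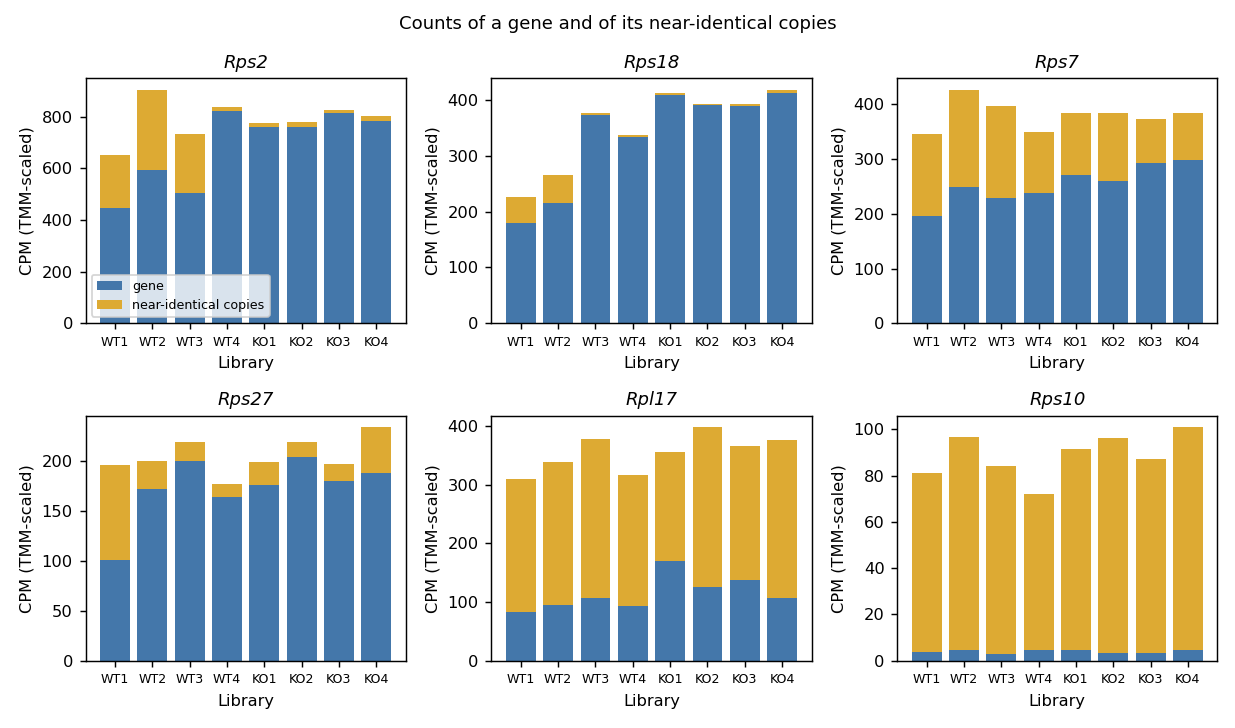
CPM on TMM-scaled library sizes of 6 members (blue) with their near-identical copies stacked on top (yellow), per library. In Rps2 the copies are large in WT replicates 1 to 3 only, in Rps18 in WT replicates 1 and 2, in Rps27 mainly in WT replicate 1, and in Rps10 they hold 95.5% of the counts.

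Paralogues of standard ribosomal proteins showed no shared difference under TMM, where 3 of 8 listed genes were higher and 5 lower in KO. Under total library size 6 were higher and 2 lower, and 76.2% of all genes were higher. None of the 8 passed under either scaling, against 0% of all genes under TMM and 6.23% called higher under total library size. Rpl3l, the muscle form of Rpl3, had 182.6 CPM in WT replicate 3 and at most 1.31 in the other 7 libraries. That is the library with the high muscle gene share. The log2 fold change of −6.04 ± 2.61 (TMM) rested on it: without WT replicate 3 it was 0.40. Rpl22l1 was also highest there, at 34.9 CPM against 13.5 to 18.0 in the other WT libraries and 13.6 to 25.8 in KO (−0.19 ± 0.33). Rpl7l1 had 74.4 to 94.8 CPM in WT and 61.4 to 91.5 in KO (−0.14 ± 0.14), Rps27l 94.2 to 106.3 and 75.2 to 103.2 (−0.14 ± 0.12), and Rps4l 36.8 to 43.6 and 38.2 to 45.7 (0.08 ± 0.10). Rpl39l (0.00 ± 0.57) and Rpl36al (0.30 ± 0.44) had few counts.

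Ribosomal proteins that go by other names were outside the rule. Fau, which encodes the 40S protein eS30 fused to a ubiquitin-like domain, had 196, 230, 218 and 197 CPM in WT and 271.8, 268.1, 268.6 and 285.7 in KO. The groups did not overlap, with a log2 fold change of 0.38 ± 0.10 under TMM (adjusted p = 0.118, edgeR) and an adjusted p of 0.0355 under total library size. Rack1, a 40S scaffold protein, had 408 to 511 CPM in WT and 442 to 504 in KO (0.00 ± 0.12).

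Shorter transcripts had the higher fold changes within the family, as a description across genes that share libraries. The median log2 fold change under TMM was 0.26 for the 17 standard members under 600 bases, 0.20 for the 32 from 600 to under 1000 bases (annotated transcripts, GENCODE M21) and 0.14 for the 28 of 1000 bases or more. Across the 77 the correlation with length was weak (Pearson r = −0.229, Spearman rho = −0.23). Among other genes tested the medians in the same length classes were 0.01, −0.07 and 0.01. Among those of at least 50 CPM they were −0.021, −0.126 and −0.105, so there too the shortest class had the highest median.

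Of 7 lists of other genes of the translation apparatus, 6 had a median log2 fold change between −0.13 and 0.01 under TMM. On fixed lists, 15 other genes with TOP messages had a median log2 fold change of −0.03, with 6 higher and 9 lower in KO. They are called TOP factors here, and include Hnrnpa1 and Pabpc1 beside elongation and initiation factors. The other 30 initiation factors had −0.13 (8 higher, 22 lower), the 80 genes of ribosome assembly −0.03 (32 and 48), and the 14 tested of RNA polymerase I −0.09 (6 and 8). The 20 genes of mTORC1, LARP1 and S6 kinase control had −0.13 (8 and 12), the 13 of ribosome rescue 0.01 (7 and 6), and the 10 host genes of small nucleolar RNAs, several of which also carry TOP tracts, 0.17 (7 and 3), or 0.02 without WT replicate 3 and KO replicate 2. No gene of these lists passed under TMM by edgeR, although 25 had an unadjusted p under 0.05 (21.5% of all genes tested did), and DESeq2 called 4 (8.71% of all genes with an adjusted p). Under total library size, all 15 TOP factors (median 0.23), 21 of the 30 other initiation factors (0.14), 68 of the 80 assembly genes (0.23), 13 of the 14 polymerase I genes (0.17), 12 of the 20 mTORC1 control genes (0.13), all 13 rescue genes (0.27) and all 10 snoRNA hosts (0.43) were higher in KO, beside a median of 0.27 for all genes. On that scale 8 of the 182 listed genes passed (4.4%), all higher in KO, against 6.23% of all genes.

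Named genes of these lists were chosen by p, a choice that favours groups without overlap. Fold changes and overlap are given here under TMM, where 7.56% of all genes tested were lower and 5.8% higher without overlap. Under total library size these shares were 1.14% and 19.8%. Among the TOP factors, Hnrnpa1 had 111 to 146 CPM in WT and 142 to 172 in KO (0.26 ± 0.12), Pabpc1, the poly(A) binding protein, 305 to 418 and 265 to 411 (−0.23 ± 0.16), and Eif4b 248 to 308 and 222 to 260 (−0.14 ± 0.11). The initiation factors named by the rule were lower in KO without overlap: Eif2s3x (−0.45 ± 0.12), Eif1ax (−0.35 ± 0.12) and the helicase Eif4a2 (−0.34 ± 0.12). Of mTORC1 control, Rptor, the raptor subunit, had 40.3 to 44.9 CPM in WT and 29.6 to 35.9 in KO (−0.35 ± 0.11). Its partner Akt1s1 (−0.46 ± 0.15) and the translational repressor Eif4ebp2 (−0.39 ± 0.11) were also lower without overlap. In assembly, Pno1 (−0.62 ± 0.19) and Ltv1 (−0.47 ± 0.12), both of 40S maturation, were lower and Nhp2, of H/ACA particles, was higher (0.30 ± 0.10), each without overlap. Polr1b, a large RNA polymerase I subunit, was higher without overlap (0.53 ± 0.18), while Polr1d (−0.24 ± 0.14) and Rrn3 (−0.19 ± 0.11) overlapped. Gas5 (0.29 ± 0.12), Snhg8 (0.22 ± 0.12) and Zfas1 (0.28 ± 0.19) led the snoRNA hosts, and Serbp1 (−0.17 ± 0.13), Gtpbp2 (0.13 ± 0.12) and Edf1 (−0.10 ± 0.11) the rescue list. Adjusted p for all of these was at least 0.109 by edgeR under TMM.

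**Figure D5:**
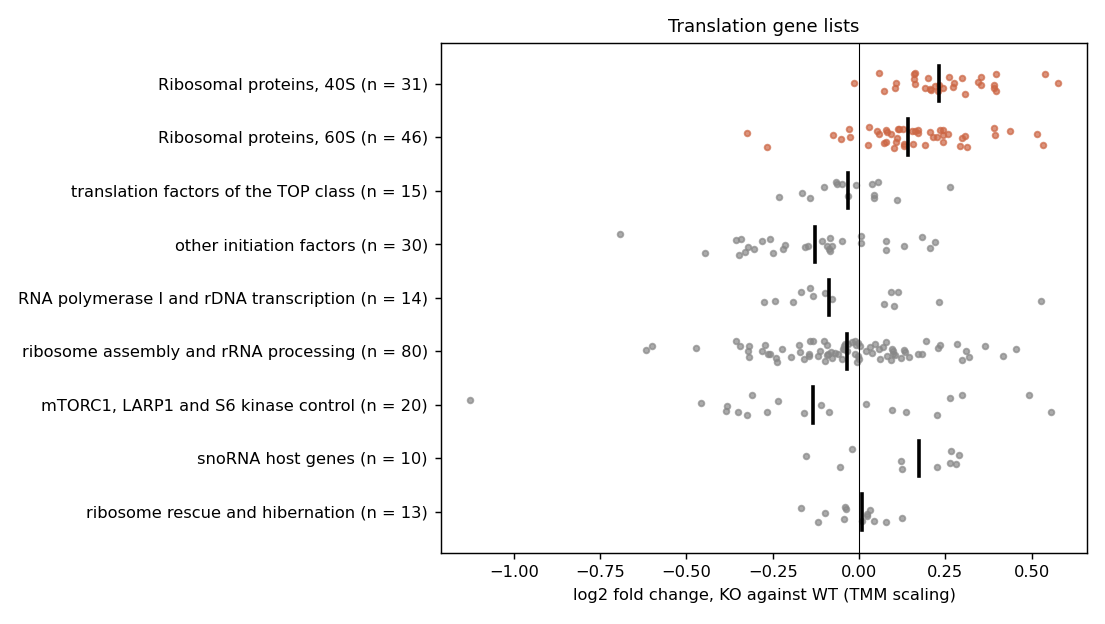
Log2 fold change (KO against WT, TMM scaling) of every tested gene in the 40S and 60S sets and in 7 fixed translation lists; vertical bars are medians. The 40S and 60S medians (0.23 and 0.14) lie to the right of 0, as does that of the snoRNA hosts (0.17, or 0.02 without WT replicate 3 and KO replicate 2), and the other lists centre between −0.13 and 0.01.

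The mitochondrial ribosome, made of nuclear-encoded proteins of its own, went the other way under TMM. There 74 of its 78 genes were lower in KO, and the median change was −0.22 on the log2 scale. Over all genes tested 50.5% were higher, and the median was 0.00. None of the 78 passed the threshold by edgeR, and neither did any other gene. DESeq2 called 5 of the 78, all lower, against 8.71% of all genes with an adjusted p, in either direction. Under total library size 52 of the 78 were higher and the median was 0.04. On that scale 76.2% of all genes were higher, and their median was 0.27. A ratio within each library does not depend on scaling. Summed cytosolic to summed mitochondrial ribosomal protein counts gave 4.42, 4.76, 4.63 and 4.03 in WT and 7.18, 6.07, 5.26 and 5.47 in KO, so every KO library was above every WT library. The ratio of members to TOP factors was 2.23 to 2.49 in WT and 2.61 to 2.95 in KO. For members against the 80 assembly genes it was 7.73 to 9.44 in WT and 9.71 to 10.3 in KO, again without overlap.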

How the data were processed

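The deposited table holds whole-number counts per gene for 8 libraries. Per the submitters' processing notes, the build used was GRCm39. Second strands carried dUTP, per the labels' protocols. For aligner, counting program, annotation and multiply aligned reads, the sources used here give nothing. Symbols and transcript lengths came from GENCODE M21 (18321 genes matched, 74 not), and copies were found with BLAST 2.17.0 on its transcripts. Start-site sequence came from RefSeq. The members and lists were chosen with earlier results of these data known.

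Genes were filtered with filterByExpr (13901 kept) and fitted on all 8 libraries with edgeR 4.0.16 in R 4.3.3 (robust quasi-likelihood F test, group as the only term), under TMM and under total library size. P-values were adjusted over all genes by Benjamini and Hochberg, with a threshold of 0.05. Log2 CPM used a pseudocount of 0.5. In simulated counts of 13901 genes for the 8-library TMM comparison, edgeR recovered 2.74%, 30.8% and 79.0% of genes changed 1.5-, 2- and 4-fold, with 3 false calls of 74. Changed genes were drawn at random from all tested, and the libraries did not otherwise differ in composition. These rates need not hold for the members, whose within-group spread was smaller. Its median SD of log2 CPM was 0.139 for the 77 standard members and 0.26 for all genes tested. Sums over members, shares and lists were described without a test.

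Named genes were Fermt2, 11 members chosen for their role, the 8 highest and 8 lowest fold changes, the 3 smallest p, the 3 highest and lowest mean CPM, paralogues, proteins under other names, and the 3 smallest p of each pathway list. Rps7, Rps10, Rps15, Rps16, Rps23 and Rps27 were named after their values were seen, as were the copies Rps2-ps10 and Gm11361. Some genes that this rule names are not reported here. Alternatives were DESeq2 1.42.0 (test, size factors), limma-voom (3.58.1), upper-quartile factors, totals without mitochondrial genes, summed member counts, other filters, no robust dispersion, a replicate block, each library left out, and 6 libraries. Added after the data were seen were copies summed with their member, and 6 libraries and single omissions under total library size. Figures used matplotlib 3.10.9.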

Additional observations from a re-analysis of the deposited data

Results flagged for a closer look

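Among 150 groups of 4 values (56 genes and 19 shares of counts, in WT and in KO), 16 had 1 library set apart from the other 3 by Dixon's test at the 95% level. Chance flags about 1 in 20. Among ribosomal proteins, Rplp0 was high in KO replicate 1 (729.8 CPM against 394.3 to 434.6), and Rpl12 in KO replicate 2 (225.3 against 188.5 to 191.6). Rpl37a and Rpl41 were both low in WT replicate 4, at 146.6 CPM against 210.8 to 219.9 and at 434.7 against 510.8 to 512.7. The muscle paralogue Rpl3l was high in WT replicate 3 (182.6 CPM against at most 1.31).

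Of the listed partners, Gtpbp2 was high in KO replicate 1 (136.3 CPM against 100.6 to 106.3) and Ltv1 in WT replicate 3 (20.94 against 16.96 to 17.57). Rptor was high in WT replicate 4 (44.94 CPM against 40.27 to 40.9). Serbp1 was high in WT replicate 3 (237.9 CPM against 165.9 to 173.8) and low in KO replicate 1 (158.3 against 167.7 to 168.8).

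Among shares of counts, the near-identical copies were low in KO replicate 3 (0.1313% against 0.1484% to 0.1517%). Skeletal muscle genes were high in WT replicate 3 (4.901% against at most 0.0402%) and KO replicate 2 (0.03998% against at most 0.0119%). KO replicate 2 was also high for T and NK cell genes (0.04021% against 0.0051% to 0.00911%), interferon response (0.6779% against 0.0411% to 0.0496%) and cell cycle (0.02901% against 0.00734% to 0.00859%).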

How the results depend on the processing

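The higher member share and the 73 of 84 direction rest on 8 libraries, and no member passed under TMM in any alternative fit by edgeR or limma-voom. Over single omissions the share difference was 0.721 to 0.867 points, the median 0.114 to 0.211, the members lower in KO 8 to 14, their spread (SD) 0.182 to 0.218 and the genes called 0 to 361, the most when KO replicate 2 was omitted. Replicate numbers did not pair the libraries (same-number correlations −0.051, 0.044, −0.13 and 0.224), and with the replicate block the median was 0.174, 0 members were called and Rack1 was at 0.0053. Total library size gave 889 genes and 27 members called, a median of 0.428, 2 members lower and 63 apart and higher. Totals without mitochondrial genes gave 1 gene, a median of 0.337 and 4 members lower. Summed member counts gave 476 genes, a median of −0.0213, 45 members lower, and 3 apart and higher with 5 apart and lower. The comparison of 6 libraries gave 461 genes under TMM, and under total library size 1528 genes, 27 members, a median of 0.440 and 3 lower. DESeq2 gave 1113 genes and 6 members, no low-count filter 1 gene, upper-quartile factors 7 members lower, and members without paralogues or rows under 10 CPM 7 lower. The causes were not tested.

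Signs of small log2 fold changes turned as follows. Total library size: Edf1 0.159, Eif4b 0.125, Pabpc1 0.0282, Polr1d 0.0142, Rack1 0.262, Rpl12 0.237, Rpl22l1 0.0885, Rpl23a 0.207, Rpl4 0.189, Rpl7l1 0.117, Rplp0 0.0007, Rps27l 0.115, Rrn3 0.0662 and Serbp1 0.098. Totals without mitochondrial genes: Edf1 0.0652, Eif4b 0.0324, Rack1 0.172, Rpl12 0.144, Rpl23a 0.113, Rpl4 0.0988, Rpl7l1 0.0245, Rps27l 0.024 and Serbp1 0.0085. With 6 libraries under total library size: Edf1 0.0742, Eif4b 0.141, Polr1d 0.0153, Rack1 0.246, Rpl12 0.221, Rpl22l1 0.214, Rpl23a 0.138, Rpl3l 0.178, Rpl4 0.225, Rpl7l1 0.134, Rps27l 0.109, Rrn3 0.0017 and Serbp1 0.205. Summed member counts: Gtpbp2 −0.0727, Rpl11 −0.134, Rpl13a −0.0034, Rpl39l −0.247, Rpl5 −0.0593, Rplp1 −0.0156, Rps3a2 −0.168, Rps3a3 −0.133, Rps4l −0.113, Rps6 −0.0326 and Rpsa −0.0219. Upper-quartile factors: Rack1 0.0521 and Rpl12 0.026. With 6 libraries under TMM: Rack1 0.0069 and Rpl11 −0.0082. Rack1 was 0.0004 with no filter and with copies added, 0.0077 with the stricter filter and 0.0034 with limma-voom. Rpl39l was −0.0034 with the DESeq2 test and −0.0042 with its size factors. Where an omission turned a sign, the range over all single omissions was −0.0578 to 0.0486 for Rack1, −0.0939 to 0.0443 for Rpl12, −0.418 to 0.207 for Rpl22l1, −0.145 to 0.0226 for Rpl23a, −0.496 to 0.549 for Rpl39l, −6.52 to 0.395 for Rpl3l, −0.126 to 0.0255 for Rpl4, −1.05 to 0.364 for Rps27rt, −0.0595 to 0.11 for Rps3a2 and −0.0913 to 0.206 for Rps3a3.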
